A study of Homo sapiens with 97 samples.

Results

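Subtelomeric NS-seq peaks are candidate sites of short, newly made DNA strands that lay close to the ends of human chromosomes in AsiSI-U2OS cells. A peak of the deposited list was counted as subtelomeric when its midpoint lay within 5 Mb of the first or last base covered by the U2OS replication timing lists. Chromosomes 1 to 16, 18, 20, 21 and X were used. The short arms of chromosomes 13, 14, 15 and 21, chromosome 7 below position 7000000 and chromosome 8 from position 142000000 were left out. The right end of chromosome 8 was in fact left out whole. Its window from position 141364001 up to 142000000 belongs to neither the members nor the interior described below. This choice selected 740 of the 3750 peaks in the list, or 19.8% of the 3733 nuclear peaks. They lay at 34 ends, 15 left (low-coordinate, short arm) and 19 right (long arm), of 20 chromosomes. The choice used position only, not the peak scores or the timing classes.

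The study followed DNA replication near double-strand breaks in 97 samples. Its NS-seq samples came from AsiSI-U2OS cells, an osteosarcoma line labelled wild type that carries the restriction enzyme AsiSI under the control of 4-hydroxytamoxifen (4OHT). Of these, 2 samples had been given 4OHT at 300 nM for 4 h, 2 were controls and 2 were input DNA. The single peak list is named as merged and was deposited with an input sample, so peaks cannot be assigned to treated or control cells and no replicate spread can be given. Timing classes came from lists deposited with merged G1 and S phase DNA of untreated wild-type U2OS cells. They divide the genome into early, mid-early, mid-late and late replicating sequence. A list of AsiSI break sites came with an MRE11 ChIP-seq sample (MRE11 is a nuclease that binds DNA ends) of HCT116 cells, a colorectal carcinoma line, which lacked the end-joining ligase LIG4, carried the cohesin subunit RAD21 on a degron, and had been given 4OHT.

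Replication starts at many origins in each human chromosome, and each start lays down short strands that begin with an RNA primer. NS-seq isolates these strands by size and by the resistance that the primer gives them to an exonuclease, so that its peaks mark candidate origins. Replication timing is the order in which regions are copied during S phase. Gene-rich open chromatin tends to be copied early and gene-poor, lamina-bound chromatin late. Subtelomeres lie between the terminal telomere repeats and the single-copy DNA of a chromosome arm, hold duplicated blocks shared between ends, and differ from end to end in gene content. The 5 Mb windows used here were set by distance and not by this definition, and 11.5% of the members lay in the first 500 kb. U2OS cells keep their telomeres by a recombination pathway (ALT) and not by telomerase.

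The subtelomeric windows covered 170.0 Mb, or 5.64% of the 3012 Mb of listed nuclear sequence, and held 4.35 peaks per Mb (95% exact Poisson interval 4.04 to 4.68). The interior of the same chromosomes, more than 5 Mb from both ends and outside the stretches left out, held 1709 peaks in 2575 Mb, or 0.664 per Mb (0.633 to 0.696). Density was thus 6.56 times as high in the windows (conditional exact interval 6.01 to 7.15). The members were 25.8% of all 2869 peaks on these chromosomes, a total that includes the stretches left out. The first 5 Mb of 7 left and the last 5 Mb of 8 right held 181 and 168 of these peaks. The intervals above, and all others given here, cover counting error only. They treat peaks as independent, which the grouping of peaks described further on does not bear out, so they are too narrow. With 1 list there was no test of any difference, and read depth is unknown. Listed sequence is not all readable, since timing intervals over 1 Mb can hold assembly gaps. With those left out of windows and interior, the density ratio was 6.07.

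Peaks were spread unevenly over the ends. An end held from 1 to 59 peaks, with a median of 22. Chromosome 9 had 59 peaks at its right end, chromosome 21 had 58 and chromosome 20 had 51. Next came the left ends of chromosome 5, with 46, and chromosome 16, with 43. These 5 ends held 257 peaks, 34.7% of all, in 5 of the 34 windows. At the other extreme, 3 left held 1 peak, and 9 left and 11 right held 2 each. The 3 densest ends reached 11.8, 11.6 and 10.2 peaks per Mb, and the 3 sparsest 0.200, 0.400 and 0.400, with intervals that did not overlap.

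The remaining ends filled the range between. Chromosome 1 left had 36 peaks, 2 right 34, 13 right 32, 14 right 31, 10 right and 16 right 30 each, 4 left 29 and 11 left 27. Counts of 26 were found at 12 left, 12 right and 5 right, while 18 right had 23, 3 right 21 and 6 right 18. Each of 2 left, 4 right and 7 right had 13, and X right had 12. Neighbouring ends in this order differed by less than their counting intervals. Below them came 20 left with 7, then 6 left, 8 left, 10 left and 15 right with 5 each, 18 left and X left with 4 each, and 1 right with 3. The 10 ends with 5 peaks or fewer held 36 peaks in all, while each of the 10 richest ends alone held 30 or more.

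**Figure D1:**
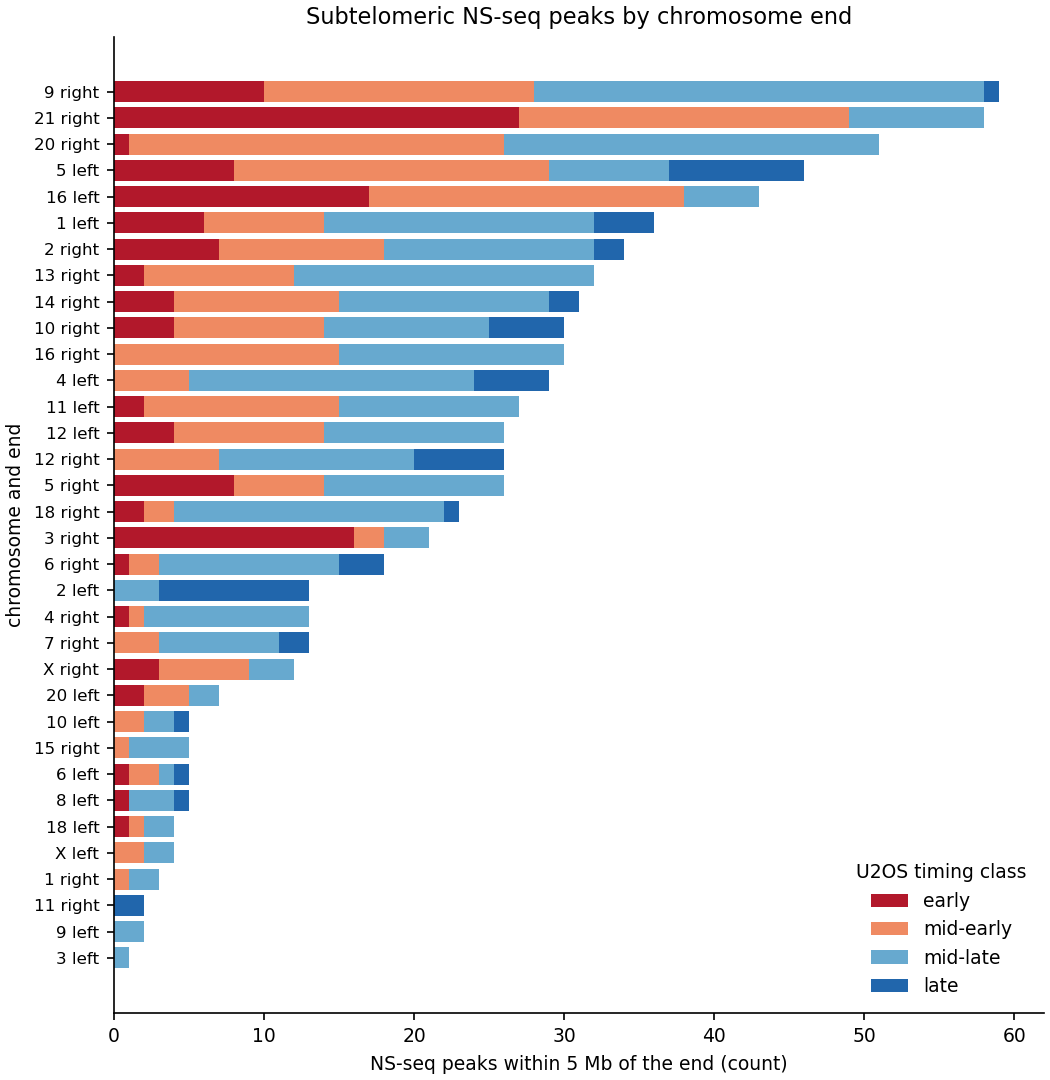
NS-seq peaks within 5 Mb of each of 34 chromosome ends (horizontal axis, count), coloured by U2OS timing class and ordered by count. The longest bar is 9 right (59) and the shortest 3 left (1), and mid-late and mid-early colours make up most of the long bars.

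The 2 ends of a chromosome often differed. Right ends held 487 peaks, 5.13 per Mb with a median of 26 and a range of 2 to 59, and left ends 253, 3.37 per Mb with a median of 7 and a range of 1 to 46. On 14 chromosomes both ends were counted, and the right end held more on 8, the left on 5 and neither on 1. On 9 of the 14 the counts differed 3-fold or more. Chromosome 9 had 59 peaks on the right and 2 on the left, and chromosome 20 had 51 on the right and 7 on the left. Chromosome 11 went the other way, with 27 on the left and 2 on the right, as did chromosome 1, with 36 on the left and 3 on the right.

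Most ends, though not all, were denser than the inside of their own chromosome. At 28 of 34 ends the density was above that of the interior of the same chromosome, and at 25 of these the counting interval lay wholly above it. At 6 ends (1 right, 3 left, 9 left, 10 left, 11 right and 20 left) it was below, but all 6 intervals hold the interior density, so that these ends are not shown to be sparser than the interior. At 13 right there were 6.40 peaks per Mb against 0.116 in the interior of that chromosome, while 20 left held 1.40 per Mb against 1.49. Chromosome 20 had the highest interior density of the 20 chromosomes. The density of its left end was above that of the pooled interior, but its interval (0.563 to 2.88) holds that value of 0.664.

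Density was highest 0.5 to 1.5 Mb from the end and lower on both sides of that stretch. The first 500 kb held 85 peaks, or 5.00 per Mb (3.99 to 6.18). The next step held 112, and the step from 1000 to 1500 kb held 125, or 7.35 per Mb (6.12 to 8.76), the most of the 10 steps, with an interval that overlaps that of the first. From there the counts went down at each step, through 95, 85, 67, 64, 47 and 33 to 27 peaks, or 1.59 per Mb (1.05 to 2.31), between 4500 and 5000 kb. The median distance was 1.74 Mb. Of the members, 502 (67.8%) lay in the first 2.5 Mb and 238 in the second, a density ratio of 2.11 (1.80 to 2.47), and the nearer part held more peaks at 24 ends, fewer at 6 and as many at 4.

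The decline went on beyond the window. In 1 Mb steps the same 34 ends held 1.76 peaks per Mb between 4 and 5 Mb and 1.38 between 5 and 6 Mb. The step from 6 to 7 Mb was higher again at 2.26 per Mb (1.79 to 2.83), and from 8 to 20 Mb the steps lay between 0.412 and 0.941, around the interior mean of 0.664. The intervals of the steps on both sides of the 5 Mb line overlapped. The last members inside it lay 4946, 4990 and 4992 kb from an end, with scores of 10.7, 10.9 and 13.5, and the first peaks outside it lay at 5028, 5066 and 5094 kb, with scores of 14.9, 21.6 and 16.4.

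**Figure D2:**
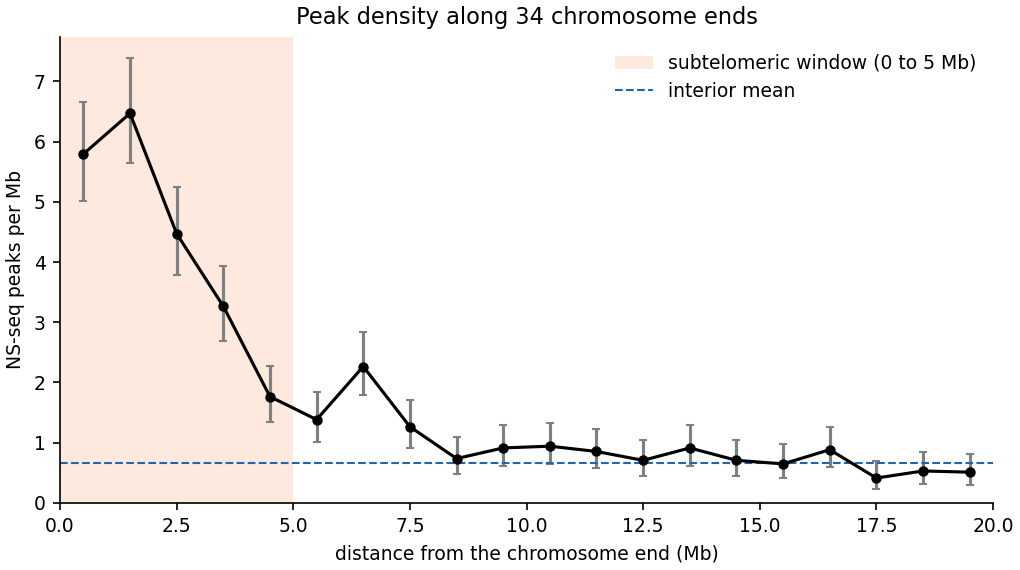
NS-seq peaks per Mb (vertical axis) in 1 Mb steps of distance from the chromosome end (horizontal axis, Mb), summed over 34 ends; points are densities, bars 95% exact Poisson intervals and the dashed line the interior mean. Density is 5.79 in the first Mb, 6.47 in the second and 1.76 in the fifth, and from 8 Mb it lies near the interior mean of 0.664.

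Next to the ends themselves the density was close to the mean of the windows. Within 100 kb of an end there were 14 members at 10 ends, or 4.12 per Mb (2.25 to 6.91), and within 50 kb there were 7, also 4.12 per Mb (1.66 to 8.48). Of the 14, 3 belonged to 4 right. The closest lay 10.1 kb from the left end of chromosome 1 (hg19 chr1:9629-10628, score 11.5). On X the closest peak lay 10.2 kb from the right end (score 19.5), and on the right end of chromosome 1 it lay 10.4 kb away (score 10.4). Other near peaks were at 5 left, 11.7 kb (score 17.7), and at 8 left, 37.3 kb. Distances are to the first or last listed base. Listed sequence began at position 1 at some left ends, such as 1 left, and at 9901 or 10001 at others, such as 3 left and 6 left. These distances thus do not share a zero point, and whether the bases beyond the closest peaks could hold a peak was not tested. The duplicated blocks in these stretches also make reads hard to place. The sources used here do not say how reads with several positions were treated, and their part in the counts was not tested.

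Single steps of single ends were often empty. Of the 340 end-by-step bins of 500 kb, 126 (37.1%) held no peak, 61 (17.9%) held 5 or more and 12 (3.53%) held 10 or more. Cut into 5142 bins of the same size, the interior had 82.7% empty, 1.19% with 5 or more and 0.136% with 10 or more. The fullest subtelomeric bin, with 16 peaks, lay 1 to 1.5 Mb from the right end of chromosome 20, and 14 peaks each lay in the first 500 kb of 5 left and 1 to 1.5 Mb from 14 right. Ends reached their densest step at different distances, at 0 to 0.5 Mb on 5 left, 2 to 2.5 Mb on 21 right and 3 to 3.5 Mb on 12 left. Members occupied 26 of the 34 ends in the first step, 27 in the second and 14 in the last.

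Subtelomeric peaks were mostly in sequence copied in the middle of S phase. Of the 740, 128 (17.3%, exact Clopper-Pearson interval 14.6 to 20.2%) lay in early sequence, 241 (32.6%, 29.2 to 36.1%) in mid-early, 316 (42.7%, 39.1 to 46.4%) in mid-late and 55 (7.43%, 5.65 to 9.56%) in late sequence. The windows themselves were 20.1% early, 25% mid-early, 36.2% mid-late and 18.7% late. Per Mb of each class, this made 3.75 peaks in early, 5.66 in mid-early, 5.14 in mid-late and 1.73 in late sequence.

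The order of the classes was not that of the interior. There, density went down from 1.13 per Mb in early through 0.891 in mid-early and 0.515 in mid-late to 0.201 in late sequence. The density of early over mid-late sequence was 0.729 (0.589 to 0.897) in the windows and 2.20 (1.93 to 2.5) in the interior. Part of the lower ratio in the windows goes with distance, since early sequence made up 14.5% of the first 2.5 Mb and 25.7% of the second. Within the first 2.5 Mb early over mid-late was 0.858 (0.646 to 1.13), from 5.60 and 6.53 peaks per Mb, and within the second 0.819 (0.578 to 1.15), from 2.70 and 3.30. Early sequence is thus not shown to be sparser than mid-late within either stretch, while both ratios lie below the interval of the interior. Early over mid-early was 0.745 (0.556 to 0.987) within the first 2.5 Mb and 0.840 (0.576 to 1.23) within the second. Early over late was 2.17 (1.57 to 3.03) in the windows and 5.62 (4.68 to 6.78) in the interior. Within the first 2.5 Mb early over late was 3.42 (2.09 to 5.80), and within the second 1.51 (0.967 to 2.38), an interval that holds 1. Mid-early and mid-late sequence did not differ in the windows beyond counting error (ratio 1.10, 0.928 to 1.31).

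All 4 classes were denser near the ends than inside, by unequal factors. The ratio of window to interior density was 3.31 (2.72 to 4.00) in early sequence, 6.36 (5.43 to 7.43) in mid-early, 9.99 (8.55 to 11.7) in mid-late and 8.59 (6.17 to 11.8) in late sequence. The intervals of mid-late and late sequence overlap, and those of early and of every later class do not. When the class densities of the windows were weighted to the class makeup of the interior, the pooled ratio was 6.0, against 6.56 without weights.

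**Figure D3:**
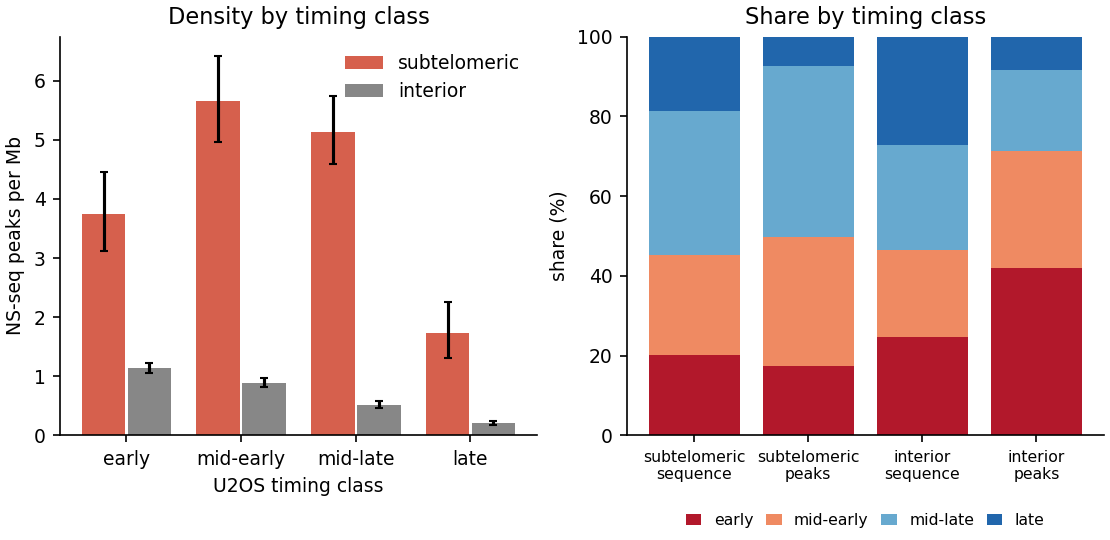
Left, NS-seq peaks per Mb (vertical axis) in each U2OS timing class for the subtelomeric windows and the interior of the same chromosomes, with 95% exact Poisson intervals; right, the share (%) of sequence and of peaks in each class. In the windows mid-early (5.66) and mid-late (5.14) sequence is denser than early (3.75), while in the interior early sequence is densest (1.13).

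By end, early sequence was less dense than mid-late at most ends, without regard to distance. Of the 27 ends with at least 250 kb of both classes, mid-late sequence was denser at 20, early at 6 and they were equal at 1. Sparse ends count in full in this tally, such as 9 left with 2 peaks and 1 right with 3, neither with an early peak. Mid-early was denser than early at 19 of 27, less dense at 6 and equal at 2. With each of the 34 ends left out in turn, early sequence stayed less dense than mid-late in all 34 cases. Late sequence was less dense than mid-late at 19 of 24 ends, but against early sequence it was denser at 7 of 18, less dense at 7 and equal at 4.

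Single ends show how far the makeup varied. Chromosome 3 right was 74.4% early, and 16 of its 21 peaks were early. At 21 right, 57.1% early, 27 of 58 peaks were early, and at 16 left, 52.7% early, 17 of 43 were. In contrast, 20 right was 62.7% mid-late and 4.71% early, and of its 51 peaks 25 were mid-late, 25 mid-early and 1 early. Late sequence made up 77.8% of 2 left, and 10 of its 13 peaks were late. That end and 5 left, 47.0% late with 9 late peaks, together held 19 of the 55 late members. Another such end, 3 left, 68.3% late, had its only peak in mid-late sequence.

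The share of a class in a window ordered the ends by count weakly or not at all. Over the 34 ends, Spearman's rho between the number of peaks and the share of sequence was 0.07 for early, 0.33 for mid-early, -0.03 for mid-late and -0.36 for late sequence. These describe 34 windows from 20 chromosomes, with shares that add to 100%, and carry no test. The 6 ends with at least 45% late sequence held 121 peaks, 4.03 per Mb, and the 6 with at least 35% early sequence held 192, 6.40 per Mb. These cuts are unequal and were not varied. The late group takes in 5 left, 47.0% late with 46 peaks, so its density depends on where the cut was placed.

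Distance and timing moved together in part. Early sequence made up 20.3% of the first 500 kb, 8.76% of the step from 2000 to 2500 kb and 30.6% of the step from 3500 to 4000 kb. Within each of 3 classes the first 2.5 Mb was still about 2 times as dense as the second, by 2.07 (1.44 to 2.99) in early, 2.34 (1.74 to 3.2) in mid-early and 1.98 (1.54 to 2.56) in mid-late sequence. In late sequence the ratio was 0.914 (0.508 to 1.62), from 22 and 33 peaks. Whether late sequence differs from the others in this was not tested.

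Neighbouring subtelomeric peaks often lay close together. The median gap to the nearest peak was 33.6 kb (quartiles 10.1 and 91.5 kb), against 81.0 kb (16.3 and 330 kb) in the interior. Joining peaks with gaps of 50 kb or less gave 444 groups. Of the members, 298 (40.3%) stood alone, 185 (25%) were in pairs and 257 (34.7%, 31.3 to 38.3%) were in 53 clusters of 3 or more, at 20 ends. In the interior 59.3% stood alone and 20.8% (18.9 to 22.8%) were in such clusters. A higher density alone shortens gaps, and the part of density in this difference was not tested.

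Clustering varied by timing class. In clusters of 3 or more were 44.0% (37.6 to 50.5%) of the mid-early members, 33.9% (28.7 to 39.4%) of the mid-late, 25.8% (18.5 to 34.3%) of the early and 20% (10.4 to 33.0%) of the late members. In the interior the shares were 23.4%, 15.8%, 22% and 18.4% in the same order. By these intervals early and late members lay within counting error of the interior, and mid-early and mid-late members above it. The peaks of a cluster enter a share together, so the intervals are too narrow to settle this. The part of density in it was not tested. Of the 53 clusters, 23 ran over more than 1 class. Of the 30 in 1 class, 13 were mid-late, 11 mid-early, 5 early and 1 late.

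The largest cluster was at the right end of chromosome 20 (hg19 chr20:61789310-62118867). Its 20 peaks spanned 330 kb, starting 907 kb from the end, with 10 in mid-early and 10 in mid-late sequence. The same end carried a cluster of 9 at 1941 kb (chr20:60862847-61085472), so these hold 29 of its 51 peaks. At 5 left lay 12 peaks over 305 kb, all mid-early (chr5:280176-584957). This is the distal part of the short arm of chromosome 5, the arm that also carries the telomerase gene TERT. At 14 right lay 11 peaks over 153 kb (chr14:106088351-106241765), near the tip of the arm that carries the immunoglobulin heavy-chain locus. No gene was placed at any peak, since no annotation of the hg19 build was used here.

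The other large clusters were smaller and differed in class. Chromosome 21 right had 9 mid-early peaks over 174 kb (chr21:45681926-45856177), and 12 right had 8 over 158 kb, 4 mid-early and 4 mid-late (chr12:132964095-133121733). On 16 left, an arm known for the alpha-globin genes near its tip, there were 7 mid-early peaks (chr16:1235358-1393675). On 9 right there were 7 peaks over 99.3 kb, 6 of them early (chr9:139816731-139916079). A cluster on 4 left had 6, of which 4 were late and 2 mid-late (chr4:3574864-3686047). As many were found in narrower clusters on 16 left, with 5 mid-early and 1 early (chr16:3041531-3138717), and on 10 right, with 3 mid-early and 3 mid-late (chr10:134862021-134954338). The only cluster of 3 or more wholly in late sequence lay at 5 left (chr5:2212467-2281482) and had 3 peaks.

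**Figure D4:**
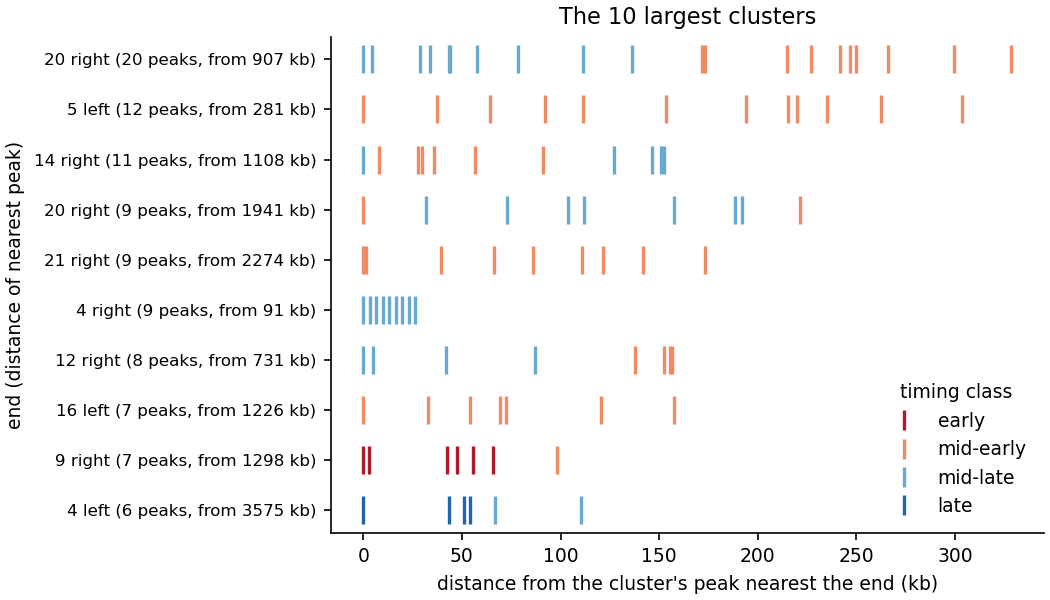
The 10 largest clusters of subtelomeric NS-seq peaks (of 3 with 6 peaks, the widest), one row per cluster, with each peak drawn by its distance (kb, horizontal axis) from the cluster's peak nearest the chromosome end and coloured by timing class. Most are irregularly spaced over 99.3 to 330 kb, and the 9 peaks of 4 right lie within 27.4 kb at even steps.

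One cluster was unlike the others in spacing. The right end of chromosome 4 held 13 peaks, and 9 of them formed a row between 90.7 and 117 kb from the end (chr4:190986590-191013943). Their starts were 3315, 3277, 3291, 3294, 3314, 3274, 3293 and 3296 bp apart, a mean of 3294 ± 14.8 bp (SD over 8 spacings). All 9 were in mid-late sequence, with scores from 10.1 to 12.6. The other 4 peaks of this end lay alone at 442, 3577, 4126 and 4712 kb.

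As background, the tip of the long arm of chromosome 4 carries D4Z4, a tandem array of repeat units a few kilobases long that holds copies of DUX4, a gene active in early embryos and silenced in most adult tissue. A related array lies at the tip of the long arm of chromosome 10. At the right end of chromosome 10 the 4 peaks nearest the end lay at 46.2, 144, 288 and 296 kb, with no even row. Whether the row on chromosome 4 lies in the array was not tested, since no hg19 sequence was used, and reads from near-identical repeat units cannot be told apart, so the 9 peaks are uncertain as separate sites.

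A search of the whole list for rows of at least 4 peaks with spacings up to 20 kb that varied by no more than 5% found 2 others, neither of them subtelomeric. A row of 5 peaks lay on chromosome 19 with a mean spacing of 5074 bp, and a row of 4 on chromosome 8 with a mean of 12187 bp. The search was set up after the row on chromosome 4 had been seen. With that row counted as 1 peak, mid-late density in the windows was 5.01 per Mb, still above early density.

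**Figure D5:**
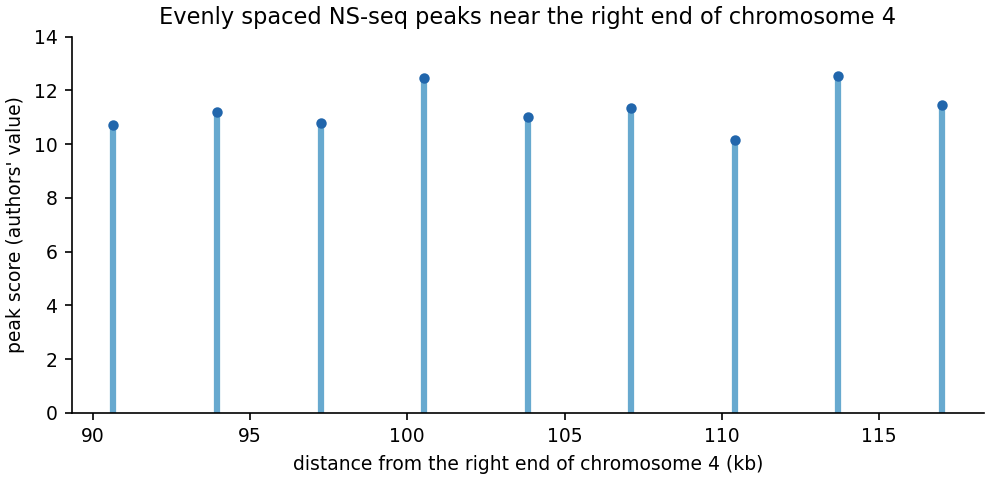
Peak score (vertical axis, the authors' value) of the 9 evenly spaced NS-seq peaks against distance from the right end of chromosome 4 (horizontal axis, kb). The peaks lie from 90.7 to 117 kb at a mean spacing of 3294 bp, with scores of 10.1 to 12.6.

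Peak scores near the ends were slightly higher than in the interior, by median in early and mid-early sequence but not in mid-late or late. The score is the authors' value, has no stated scale and describes peaks within this list only. The lowest score of any nuclear peak was 10.0, so weaker sites, if any, are not in these counts. All members were 1000 bp wide. Their median score was 12.0 (quartiles 10.9 and 14.2, range 10.0 to 22.4), against 11.7 (10.7 and 13.4) in the interior, and 55.1% of members lay at or above the median of all nuclear peaks, against 47.7% of interior peaks. Medians were 12.0 in early, 12.2 in mid-early, 12.0 in mid-late and 11.8 in late sequence. In the interior they were 11.5, 11.5, 12.2 and 11.9. Members in clusters of 3 or more had a median of 12.0 and those alone also 12.0. The highest scores were not more common near the ends, with 4.86% of members and 5.09% of interior peaks at 18 or more.

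The 10 highest scores came from 10 different ends and from 3 classes. The highest, 22.4, belonged to a mid-early peak 1941 kb from the right end of chromosome 20 (chr20:61084473-61085472), the outermost peak of the cluster of 9 there. A score of 22.1 was found on 21 right (chr21:45815686-45816685), also mid-early and inside a cluster of 9. The mid-late peak of 11 left (chr11:2226524-2227523) had 21.4, and an early peak on its own, 442 kb from 5 right (chr5:180472563-180473562), also 21.4. Next came 18 right (chr18:74570390-74571389), with 21.3, and 6 right (chr6:167920520-167921519), also with 21.3, both alone and mid-late.

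The last 4 of these ranged from 20.7 to 20.1, at 16 left (chr16:517339-518338, early), 2 right (chr2:241449145-241450144, mid-late), 1 left (chr1:1362118-1363117, mid-early) and 13 right (chr13:112111781-112112780, mid-late). No late peak was among the 10, where 7.43% of all members were late. By the 50 kb rule 4 of the 10 stood alone, against 40.3% of all members. Neither count sets the 10 apart from the other members.

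Break sites in the windows had a peak nearby more often than interior break sites. Of 129 AsiSI sites, 13 fell in the windows, at 8 ends, or 0.0765 per Mb (0.0407 to 0.131) against 0.0357 (0.0288 to 0.0438) in the interior. Of the 13, 3 were in early, 6 in mid-early and 4 in mid-late sequence. Sites lay a median of 47.8 kb from their closest peak in the windows and 703 kb in the interior, and 7 of 13 sites had a peak within 50 kb, against 10 of 92. The part of peak density in this was not tested.

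Within 10 kb of a peak lay 1 of the 13 sites (7.69%, 0.195 to 36.0%), against 4 of 92 in the interior (4.35%, 1.20 to 10.8%). The subtelomeric one, at 20 left (chr20:1207615-1207622, early), was 690 bp from a peak with a score of 18 (chr20:1205925-1206924). The next nearest gaps were 21.4 kb at X right, 25.9 kb at 13 right and 28.9 kb at 21 right. The break list and the peak list come from different cell lines, and since the peak list does not say which libraries it merges, an effect of breaks on these peaks cannot be read from it.

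Other ends of the genome gave both higher and lower counts. Chromosome 7 left held 181 peaks, 36.2 per Mb, and 8 right held 168, 33.6 per Mb, each about 3 times the densest of the 34 ends. On chromosomes 17, 19 and 22 the ends held from 5 (17 left) to 84 (17 right), and of these 17 right and 19 left, with 72, were above the range of 1 to 59 described here. At 17 right, 54.1% early, 42 of 84 peaks were early, and at 8 right 93 of 168 were mid-late, where 36.3% of the sequence was mid-late.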

How the data were processed

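The lists were used as deposited by the authors. Each line of the peak list holds a position and a score, which the authors deposited with no scale stated. Per the submitters' processing notes, the build was hg19 and MACS2 was among the tools. Read depth is unknown, with the MACS2 settings, the aligner, the merging of libraries and the division into timing classes not given in the sources used here.

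Peaks were placed by midpoint and distances run to the first or last listed base. The lists of chromosomes 13, 14, 15 and 21 start far inside the chromosome, so their left ends were left out and counted only in an alternative. Coordinates count from 1. Neighbours with gaps of 50 kb or less were joined. Densities have exact Poisson intervals, and shares and ratios exact binomial ones, at 95% confidence. No test was run, because 1 merged list has no replicates. The code was tested on simulated data (Python 3.11.15, NumPy 2.4.6, SciPy 1.17.1, matplotlib 3.10.9).

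Regions named were every end, the 10 highest scores, the 10 largest clusters (ties by span), late clusters, the 3 densest and sparsest ends, peaks within 10 kb of a break site, and peaks closest to and farthest from an end. The single chromosome pairs, bins and class makeups given as examples, the evenly spaced row, the bins of 500 kb and the class ratios within each 2.5 Mb were chosen after their values were seen. The members and lists were chosen with earlier results of these data known. Alternatives covered window width, score, clustering, class assignment, timing intervals over 1 Mb and each end. Base composition, sequences and genes need hg19 and were not analysed here.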

Additional observations from a re-analysis of the deposited data

How the results depend on the processing

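For 7 results, 278 alternatives were run, of which 262 lay inside the counting interval of the value reported. Of the 278, 238 each left out a single end, a small change to a pooled value. All 16 values outside the interval came from the 40 other alternatives. Only the density ratio to the interior and the near over far ratio (first 2.5 Mb over the second) have a direction, and neither turned. Leaving out each end moved no result outside its interval, with density from 4.13 to 4.48 per Mb and its ratio to the interior from 6.22 to 6.75. Windows of 3 Mb gave a density of 5.58 and a ratio of 7.83, and windows of 10 Mb 2.83, 4.64 and an early share of 22%. Peaks at or above the median score gave a density of 2.40, a ratio of 7.57 and a clustered share of 19.9%. With neighbours counted once, density was 2.61, the ratio 5.28, the near over far ratio 1.64, the late share 10.2% and the median score 12.7 (each group kept its highest score). Weighting to interior timing gave a ratio of 6.0. Gaps of 20 kb and 100 kb gave clustered shares of 16.2% and 63.0%. Counting the evenly spaced peaks once, an alternative chosen after seeing the data, moved no result outside its interval. No paired analysis was possible because the list does not separate samples. Where reads of repeated sequence went, and copy number at each end, were not analysed here.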

Other observations

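The first 5 Mb listed on chromosomes 13, 14, 15 and 21, which were not counted as ends, held 34 peaks. Of these, 17 were on chromosome 15, 11 on chromosome 14, 4 on chromosome 21 and 2 on chromosome 13. On chromosome 15, 8 were mid-late and 7 late, and on chromosome 14, 7 were mid-late. The timing lists of these chromosomes begin at positions 18969901 (13), 18949901 (14), 19949901 (15) and 9361101 (21).

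Of the timing intervals that reached into the windows, 9 were longer than 1 Mb, and 7 of these, 6 late and 1 early, had more than 1 Mb inside a window. The most, 1.92 Mb of late sequence near the left end of chromosome 3, held 0 members. Late sequence of 1.87 Mb inside the window at the left end of chromosome 8 held 1. A late interval of 1.45 Mb at the right end of chromosome 10 held 5, all of the late members of that end.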
